A study of Mus musculus with 8 samples.

Results

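Dntt encodes terminal deoxynucleotidyl transferase (TdT), and it was followed here as 1 gene among the 22927 genes or unnamed transcripts tested on 8 one-colour arrays. It was chosen by its gene name in the scanner files, which 1 probe carried. The cells were pro-B cells of BALB/c mice that lack Rag1 (Rag1 null), kept on OP9 stromal cells with IL-7 and infected with a retrovirus a day after they were sorted. Adult bone marrow cells (2 mice per sort) received Lin28b or the empty vector pMIG, and fetal liver cells (pooled embryos of gestation day 16, on average 8 per sort) received let-7b or an empty MSCV vector. Each arm took 12 of the 24 wells of a plate. GFP-positive cells were collected 4 days later, 100 ng of their total RNA was amplified, and each of the 4 groups had 2 arrays from sorts that the design text calls individual. The comparisons ask whether Lin28b, an RNA-binding protein of fetal cells that blocks the maturation of let-7 microRNAs, and let-7b move adult and fetal cells away from their own pattern.

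TdT is a DNA polymerase of family X that needs no template. It adds nucleotides (N nucleotides) to the DNA ends that the Rag1 and Rag2 recombinase opens between V, D and J segments, before the end-joining proteins close them, and so widens the range of antigen receptors. In mice the enzyme is known to be scarce in lymphoid cells of the fetus and abundant in adult pro-B cells and thymocytes, and fetal antibody genes hold few N nucleotides. Without Rag1 no such ends are made, so these arrays report the transcript and not the enzyme's work at joins.

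The Dntt probe spans 60 bases at chr19:41133936-41133995 of mouse build mm9, as the array design gives it. The design lists 2 RefSeq and 2 Ensembl transcripts for it, so it does not tell transcript variants apart. Whether the stretch is coding or untranslated was not analysed here. The last 30 bases, shown because they fix what was measured, hold AATAAA, the letters of a polyadenylation signal, in capitals, followed by 1 base. Whether these letters act as a signal, and where the transcript ends, was not analysed here. The second line is mature let-7b, the microRNA added to the fetal cells, from RefSeq (GRCm38.p6, chr15:85707325-85707346), with its seed (bases 2 to 8) in capitals.
Dntt probe, last 30 bases: tgtctgaatctctgtgtattgccAATAAAa
mmu-let-7b-5p: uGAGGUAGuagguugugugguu
In RefSeq's list, 11 mature mouse miRNAs share this seed, among them the let-7 family and miR-98. The letters CTACCTC, which pair with the seed, occurred 0 times in the 60 bases of the probe, and the first 6 of them, CTACCT, also occurred 0 times. The last 6, which include the letter that pairs with base 2, were not searched on their own. These counts say only that the letters searched are not in the probe's stretch, and the rest of the transcript was not searched.

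Dntt was well above background on 8 of 8 arrays and saturated or marked as an outlier on none. On the 4 bone marrow arrays its spot was read from the low-gain scan and scaled up, as were 3106 to 3362 of the 43020 non-control spots of those arrays. On the fetal liver arrays this was so for 1078 to 1389 spots, and Dntt was not among them. On the fetal empty vector array of replicate 2 the spot finder had placed the Dntt spot at its nominal position, as it had 16.2% of spots there (11.7% to 18.1% over the 8 arrays). The 4 bone marrow arrays came from 1 slide, the fetal arrays of replicate 1 from a second slide and those of replicate 2 from the third. The 75th percentile of the processed signal was 1925 to 2234 on bone marrow arrays and 271.5 to 487.9 on fetal arrays, lowest on the fetal empty vector array of replicate 2. Of the non-control spots, 64.4% to 68% were well above background on bone marrow arrays and 56.5% to 68.6% on fetal ones. All 9 tested pro-B markers (among them Cd79a, Cd79b, Vpreb1, Vpreb2, Pax5, Ebf1, Blnk and Il7r) were well above background on all 8 arrays. Of 2 Lin28b probes, one was well above background on both Lin28b arrays and on neither bone marrow empty vector array (at least 121-fold higher with Lin28b, limma adjusted p = 0.00174 over all probes). The other was well above background on both Lin28b arrays and 1 empty vector array and differed by 0.64 ± 0.28 (adjusted p = 1). That probe is the brighter over the 8 arrays, so it stands for Lin28b among the genes tested.

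Levels are on a log2 scale on which the 75th percentile of the array's own processed signals is 0. With the empty vector, Dntt in bone marrow stood at 6.48 and 6.41, or 89.3 and 85.1 times the percentile (processed signals 171960 and 181817). With Lin28b it stood at 5.70 and 5.53, or 52.1 and 46.3 times the percentile (116492 and 95997). In fetal liver with let-7b it stood at 1.90 and 1.46, or 3.74 and 2.75 times the percentile (1825 and 1285). In fetal liver with the empty vector it stood at 0.51 and 0.64, or 1.43 and 1.56 times the percentile (691 and 423). The order of the group means was therefore bone marrow empty vector (6.45), bone marrow Lin28b (5.62), fetal liver let-7b (1.68) and fetal liver empty vector (0.58). Neighbours in this order did not overlap: the nearest arrays were 0.71 apart between the bone marrow groups, 3.63 between Lin28b and let-7b, and 0.82 between the fetal groups.

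**Figure D1:**
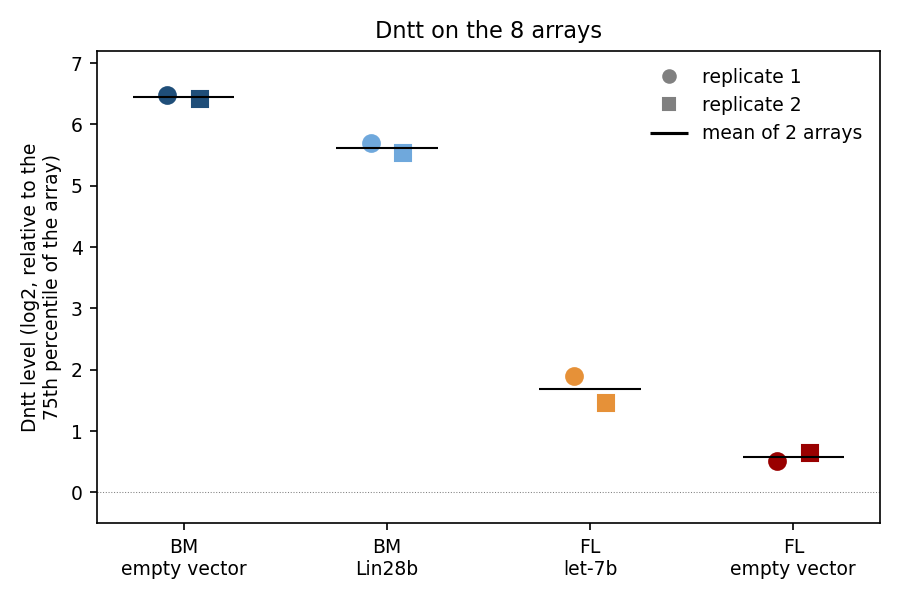
Dntt on the 8 arrays, as log2 level relative to the 75th percentile of each array (vertical axis), with a point for each array and a bar at each group mean (n = 2 per group). The 4 bone marrow arrays lie between 5.53 and 6.48 and the 4 fetal liver arrays between 0.51 and 1.90, and within each tissue the treated pair lies nearer to the other tissue.

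With the empty vector, Dntt fell by 5.87 ± 0.18 (SE, n = 2 per group) from bone marrow to fetal liver, a level 58.5-fold lower (95% interval 42.6 to 80.4). The adjusted p was 0.000289 (limma, Benjamini-Hochberg over 22927 genes). This comparison called 59.6% of all genes, 19.5% lower and 40.1% higher in fetal liver, and the groups did not overlap for 28.3% of genes in the downward direction, so that a call alone sets no gene apart. By size, 10 of the other genes differed downward by as much (0.0436%), and 9 had a smaller p. The 5th and 95th percentiles of all genes were -1.65 and 3.01, and their median was 0.52. The genes next to Dntt in rank were an unnamed transcript (ENSMUST00000103515, -5.92) and Ccn2, a secreted matrix-associated protein (-5.84). In a bulk sample, fewer cells with Dntt and less Dntt RNA per cell cannot be told apart. Tissue, age, vector backbone, slide and scan also differed together between these groups and cannot be told apart.

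Over the treated and control arrays of a tissue, the mean was 1.13 in fetal liver and 6.03 in bone marrow, a difference of -4.90 (n = 4 each). The exact permutation test over arrays gave a two-sided p of 0.0286, the smallest that 70 splits allow. Arrays of a tissue may share a sort. Within a tissue, 2 arrays against 2 cannot go below 0.333 in such a test, so the tests of both treatments rest on the spread that limma estimated over all 4 groups and all genes. The spread differed by tissue: the median SD over genes was 0.0765 (Lin28b) and 0.0816 (empty vector) in bone marrow. In fetal liver it was 0.2209 (let-7b) and 0.2867 (empty vector). The shared estimate gave Dntt an SE of 0.18 in both treatments. With only the arrays compared, the SE was 0.094 with Lin28b and 0.26 with let-7b.

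In adult bone marrow cells, Dntt was lower on both Lin28b arrays than on both empty vector arrays. The difference was -0.83 ± 0.18 (SE, n = 2 per group; 95% interval -1.29 to -0.37), which is 1.77-fold (1.29 to 2.44). It did not pass the test over all genes (adjusted p = 1 with limma). With the brightest probe standing for each gene, no gene passed in this comparison (0% of 22927), Lin28b itself included, although its other probe passed when all probes were tested. The smallest adjusted p was 0.179 and 819 genes had an unadjusted p below 0.05. Groups that did not overlap were common, at 32.3% of genes lower and 18.4% higher with Lin28b. As many as 527 other genes (2.3%) were lower by as much as Dntt, and 73 had a smaller p. Gm2684 and Ms4a18, the genes next to it in rank, both differed by -0.83. By replicate number the Dntt difference was -0.78 and -0.88, and before scaling it was -0.56 and -0.92. In the authors' deposited table Dntt stood at 17.59 and 17.65 with the empty vector and at 17.04 and 16.70 with Lin28b. The difference there was -0.75 (limma adjusted p = 0.291).

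In fetal liver cells, Dntt was higher on both let-7b arrays than on both empty vector arrays. The difference was 1.11 ± 0.18 (SE, n = 2 per group; 95% interval 0.65 to 1.56), which is 2.15-fold (1.57 to 2.96). It did not pass the test over all genes either (adjusted p = 0.152 with limma). This comparison called 7 genes (0.0305%), 5 of them higher (0.0218%) and 2 lower (0.00872%) with let-7b. The groups did not overlap for 11.9% of genes in the upward direction and 18.2% in the downward one. As many as 516 other genes (2.25%) were higher by as much as Dntt, and 173 had a smaller p. Grb14, an adaptor of receptor kinases, and Ifit2, an interferon-induced protein, stood next to it in rank, each with a difference of 1.11.

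Each fetal slide held an empty vector array and a let-7b array, so the let-7b difference could be read within a slide. It was 1.39 on the slide of replicate 1 and 0.82 on that of replicate 2. Before scaling the same differences were 1.40 and 1.60. The scaling moved the second pair because the 75th percentile was higher on the let-7b array by 0.78 there, against 0.01 in the first pair. In the authors' deposited table Dntt stood at 9.33 and 9.40 with the empty vector and at 10.73 and 10.24 with let-7b, a difference of 1.12 (limma adjusted p = 0.597). The smallest estimate came from another background correction, normexp, at 0.79. The median of all genes was then 0.34 rather than -0.06, so that Dntt lay above it by 0.45 rather than 1.16. With slide as a random block the adjusted p was 0.0503, and with a trended and robust variance it was 0.0523. Over the 18 alternatives it ran from 0.0503 to 1.

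**Figure D2:**
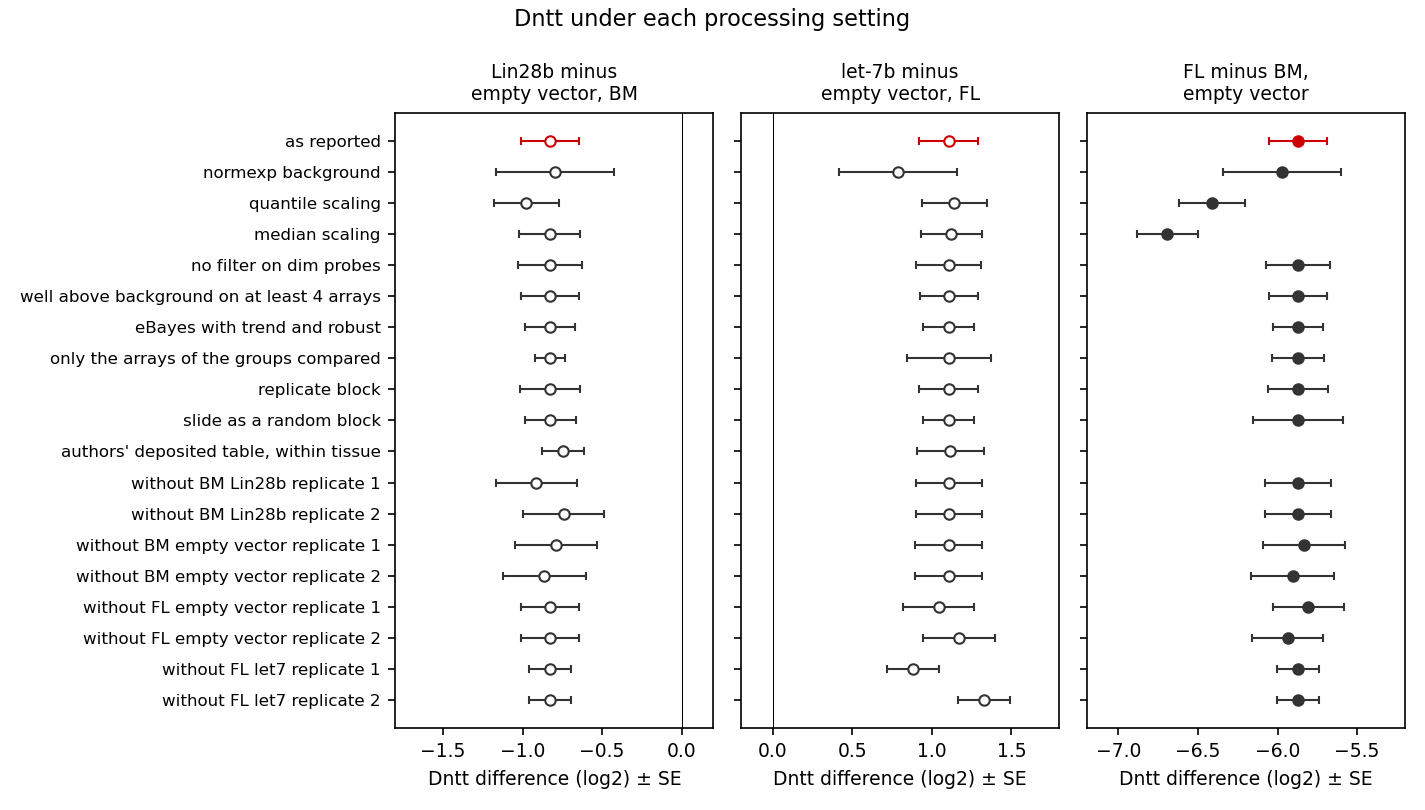
Dntt difference (log2) under each way of processing the arrays and with each array left out in turn, for Lin28b against empty vector in bone marrow, let-7b against empty vector in fetal liver and fetal liver against bone marrow with the empty vector; bars are the SE, filled points have an adjusted p below 0.05, and the authors' deposited table has no tissue value. The Lin28b difference stays between -0.98 and -0.74 and the let-7b difference between 0.79 and 1.33 with no point filled, and the tissue difference stays between -6.69 and -5.81 with every point filled.

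Set side by side, the Dntt differences with the treatments had opposite signs, each toward the level of the other tissue. The let-7b difference minus the Lin28b difference was 1.93 ± 0.26, which did not pass over all genes (adjusted p = 0.15 with limma). It passed with a trended and robust variance (adjusted p = 0.032) and with slide as a random block (adjusted p = 0.045). Over the other 14 alternatives the adjusted p was above 0.05 and reached 0.766. In this test 1 gene of 22927 was called (0.00436%), 226 had a difference as large upward (0.986%) and 58 a smaller p. The Lin28b and let-7b comparisons share no array. In all, 74 genes (60 with a RefSeq symbol), Dntt among them, were lower with Lin28b by at least 0.83 and higher with let-7b by at least 1.11, and 46 of these had groups that did not overlap in both. The reverse pattern, higher with Lin28b and lower with let-7b by as much, held for 36 genes. As many as 70 genes were that far higher in both and 38 that far lower in both. The 74 genes were picked by the size of both differences, which favours groups that do not overlap. Of all genes, 32.3% were lower with Lin28b and 11.9% higher with let-7b with such groups. The share with both was not counted, so the 46 set no gene apart.

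**Figure D3:**
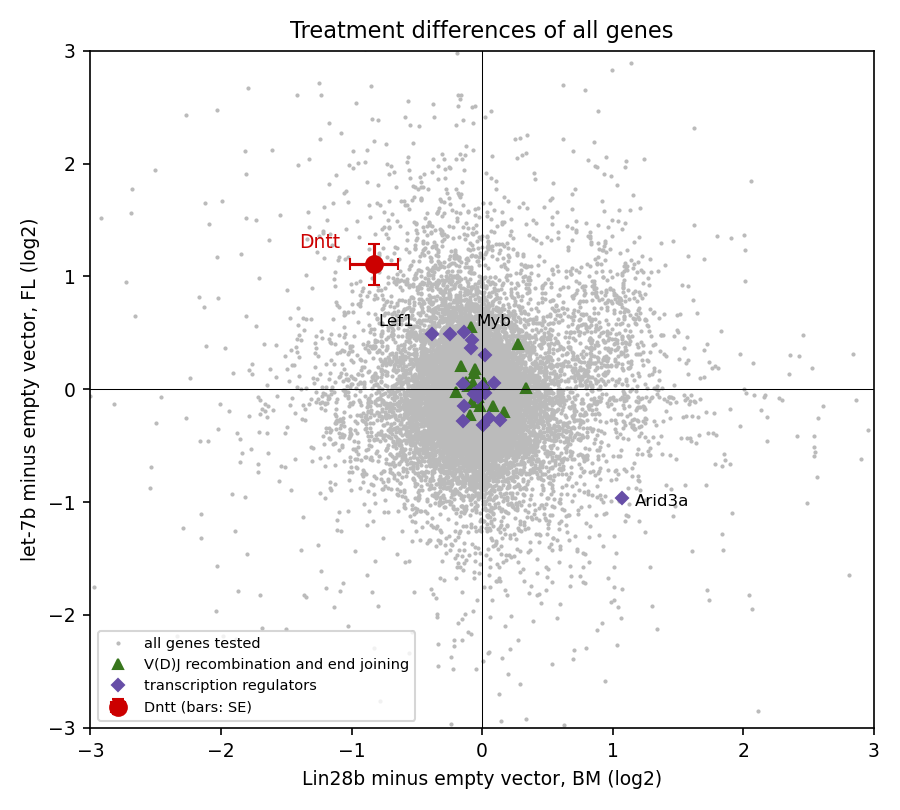
Difference with Lin28b in bone marrow (horizontal axis, log2) against difference with let-7b in fetal liver (vertical axis, log2) for the genes tested, with Dntt (bars for the SE), the V(D)J list (triangles) and the regulators (diamonds) marked and 39 genes beyond 3 on an axis not drawn. Dntt lies at -0.83 and 1.11 in the upper left and Arid3a at 1.07 and -0.96 in the lower right, while most genes lie close to 0 on both axes.

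The treated groups stayed far apart. From bone marrow with Lin28b to fetal liver with let-7b, Dntt fell by 3.94 ± 0.18 (SE, n = 2 per group), or 15.3-fold (95% interval 11.1 to 21). The adjusted p was 0.000583 (limma). This comparison called 58% of genes, 18.5% lower and 39.5% higher in fetal liver, and 29.1% of genes were lower with groups that did not overlap. As many as 45 other genes were lower by as much and 46 had a smaller p. It shares the confounding of tissue, vector and slide.

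The other mammalian polymerases of family X were then set beside Dntt. Polm, which also joins V(D)J ends, differed by 0.28 ± 0.17 with Lin28b and by 0.40 ± 0.17 with let-7b (adjusted p = 1 and 0.535, limma). Between tissues Polm rose by 0.54 ± 0.17 in fetal liver (adjusted p = 0.0401), a call kept in 3 of 17 alternatives, with -0.29 after median scaling and 0.02 on its second probe. Polb, the polymerase of base excision repair, differed by 0.26 with Lin28b and -0.16 with let-7b, and by -0.37 between tissues (adjusted p = 0.118). Poll, which fills short gaps at joins, differed by 0.34 between tissues (adjusted p = 0.117; -0.48 after median scaling). Over the 4 polymerases, none passed in either treatment, and the tissue differences ran from -5.87 for Dntt to 0.54 for Polm. Of the proteins named for binding TdT, Dnttip2 fell by 0.92 ± 0.19 in fetal liver (adjusted p = 0.00932). That call was kept in 14 of 17 alternatives (limma adjusted p up to 0.0747). Dnttip1 rose there by 0.36 ± 0.12 (adjusted p = 0.0477), a call kept in 3 of 17 alternatives (adjusted p up to 0.715), with -0.46 after median scaling. Neither passed in a treatment, where their differences lay between -0.20 and 0.15.

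The share of calls that were higher in fetal liver differed with the scaling and the background correction. Of all genes called between tissues, 67.3% were higher there after the 75th percentile, 49.2% after quantile scaling, 34.5% after median scaling and 84.1% with the normexp background. The median of all genes moved with it, from 0.52 to 0.04, -0.30 and 0.98. The Dntt difference was -6.41, -6.69 and -5.97 under those 3 alternatives, so it exceeded these shifts many times over.

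All 20 genes of the V(D)J recombination and end joining list were tested, and TdT acts between their products. With Lin28b, 0 of 20 passed in limma, 0 had an unadjusted p below 0.05, and the median was -0.04 (all genes -0.04). With let-7b the counts were again 0 and 0 of 20, with a median of 0.02 (all genes -0.06). Over all 22927 genes, 0 passed and 819 had an unadjusted p below 0.05 with Lin28b, against 7 and 2240 with let-7b. The 0 of 20 passing is thus close to the share of all genes (0% and 0.0305%). The members of smallest p with Lin28b were Polm, the DNA-bending protein Hmgb1 (-0.20), Dclre1c, which encodes the nuclease Artemis (0.34), and Rag2 (-0.12). With let-7b they were Polm, the ligase Lig4 (0.55), the Ku protein Xrcc5 (-0.15) and Trp53bp1 (0.14). No member of the list lay as far from 0 as Dntt in either treatment: the range was -0.20 to 0.34 with Lin28b and -0.23 to 0.55 with let-7b. Of all genes, 2.3% with Lin28b and 2.25% with let-7b lay as far as Dntt in its direction. A list of 20 would therefore hold few such genes in any case.

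Between tissues 12 of these 20 passed (60%, against 59.6% of all genes), 5 higher and 7 lower in fetal liver, with a median of 0.21 (all genes 0.52). Median scaling gave 1 higher and 11 lower, quantile scaling 3 and 7, and normexp 2 and 4. The 12 calls became 6 without bone marrow empty vector replicate 1, 7 without replicate 2 and 6 with only the arrays compared. Among the higher were Rag1 (2.72 ± 0.25, adjusted p = 0.000899; 4.18 on its second probe), the end-joining factor Nhej1 (1.32), the Ku protein Xrcc6 (0.76; -0.07 after median scaling) and Polm. Lower were the damage kinase Atm (-1.79), Lig4 (-1.71), Parp1 (-1.03), Hmgb1 (-1.03), its relative Hmgb2 (-0.80), Xrcc5 (-0.46) and the damage mediator Mdc1 (-0.41). Over 17 alternatives the calls of Xrcc5 and Mdc1 were each kept in 9 and those of Parp1 and Xrcc6 each in 11. Those of Hmgb2 and Nhej1 were kept in 13 and 16. Rag2, the partner of Rag1, differed by 0.20 (adjusted p = 0.242; 1.03 on its second probe and -0.63 after median scaling). The Rag1 null allele is in all 8 samples, and the place of the Rag1 probes relative to its disruption was not analysed here. Between the treated groups 6 were higher and 7 lower (58% of all genes were called). Median scaling gave 1 and 9, and the 13 calls became 4 without either Lin28b array and 5 without fetal let-7b replicate 2. Rag1 (2.68), Nhej1 (1.19), Hmgb1 (-0.86) and Xrcc5 (-0.70) had the smallest p. For the difference between the treatments 0 of 20 passed, with Lig4 (0.64), Xrcc5 (-0.23) and Trp53bp1 (0.21) among those of smallest p.

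**Figure D4:**
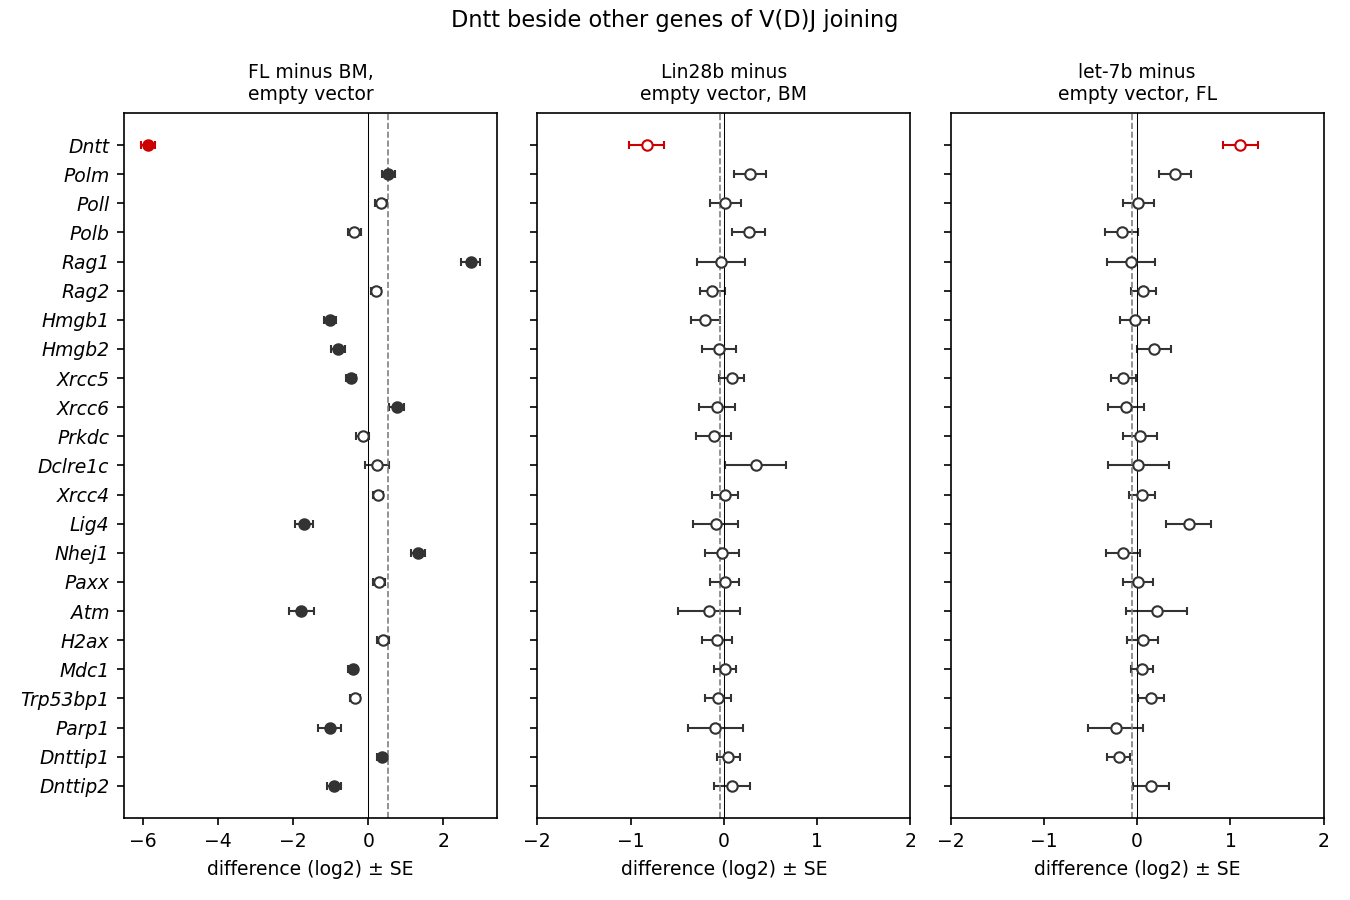
Difference (log2) of Dntt, most genes of V(D)J recombination and end joining the other polymerases of family X and the TdT-binding proteins, from left to right between tissues, with Lin28b and with let-7b, with bars for the SE; filled points have an adjusted p below 0.05 and the dashed line is the median of all genes. Dntt lies apart from the list in all 3 panels, at -5.87, -0.83 and 1.11, while the list spans -1.79 to 2.72, -0.20 to 0.34 and -0.23 to 0.55. Of all genes, 0.0436%, 2.3% and 2.25% lie as far as Dntt in its direction.

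Transcription factors of lymphoid progenitors, some of them known to bind the Dntt promoter (Ikaros and Ets family members), made up a list of 18, all tested. With either treatment 0 of 18 passed in limma, although 1 passed with let-7b under a trended and robust variance. The medians were -0.05 (Lin28b) and -0.01 (let-7b). An unadjusted p below 0.05 was reached by 2 with Lin28b (819 of all 22927 genes) and by 3 with let-7b (2240 of all genes). Arid3a, a transcription factor of fetal B cell development, was the member of smallest p in both. It stood at 2.01 and 1.92 in bone marrow with the empty vector and at 2.91 and 3.16 with Lin28b, a difference of 1.07 ± 0.16 (adjusted p = 0.856, limma). In fetal liver it stood at 3.66 and 3.42 with the empty vector and at 2.61 and 2.55 with let-7b, a difference of -0.96 ± 0.16 (adjusted p = 0.148). Arid3a passed with let-7b in 2 of 18 alternatives (lowest limma adjusted p = 0.0429). Its groups overlapped in neither treatment, and in both treatments, as between tissues with the empty vector, its difference had the opposite sign to that of Dntt. Its difference between treatments was -2.03 ± 0.22 (adjusted p = 0.103; 0.0187 with a trended and robust variance and 0.0237 with slide as a random block).

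Some regulators ran the same way as Dntt with let-7b, by less, and Lef1 did so with Lin28b too. Of the 18, 11 were lower and 7 higher with Lin28b, and 9 were higher and 9 lower with let-7b. Lef1, a factor of the Wnt pathway that is active in pro-B cells, differed by -0.38 ± 0.13 with Lin28b and by 0.49 ± 0.13 with let-7b (adjusted p = 1 and 0.352, limma). Myb, needed in early B cell development, differed by 0.51 ± 0.12 with let-7b (adjusted p = 0.278), and Elf1, an Ets factor, by 0.43 ± 0.18 (adjusted p = 0.512). The next by p with Lin28b, the chromatin organizer Satb1 (-0.14) and the Ets factor Ets1 (-0.15), had the opposite sign to Dntt with let-7b (-0.14 and -0.28) and between tissues (0.32 and 0.64, but -0.50 and -0.18 after median scaling). For the difference between the treatments Lef1 had 0.87 ± 0.19, Myb 0.65 ± 0.17 and Elf1 0.51 ± 0.25 (adjusted p = 0.322, 0.41 and 0.8).

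Between tissues 10 of the 18 regulators passed (against 59.6% of all genes), with a median of 0.24. Median scaling gave 1 higher and 8 lower, quantile scaling 4 and 4, and normexp 2 and 2. The 6 higher in fetal liver were Arid3a (1.58 ± 0.16, adjusted p = 0.00098), Foxo1, which drives Rag transcription (1.43), Bcl11a (0.99), Spi1, which encodes PU.1 (0.97), the Ikaros family member Ikzf3 (0.87; a call kept in 11 of 17 alternatives) and Ets1 (0.64; -0.18 after median scaling and -0.81 on its second probe). The 4 lower were Myb (-0.98 ± 0.12, adjusted p = 0.0016), Elf1 (-0.92; 0.56 on its second probe), the E protein Tcf12 (-0.90; -0.07 on its second probe) and Lef1 (-0.80). Over 17 alternatives the calls of Spi1 and Ets1 were each kept in 14 and that of Bcl11a in 15. Those of Foxo1, Elf1, Tcf12 and Lef1 were each kept in 16. Between the treated groups Bcl11a (0.95), Foxo1 (1.11), Ets1 (0.51; -0.10 with normexp and -0.30 after median scaling) and Tcf12 (-0.63) had the smallest p.

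The genes on each side of Dntt were read next. In the RefSeq gene order the 3 before it are Blnk, a B cell adaptor, the noncoding C330026H20Rik and the pseudogene Gm4269, and the 3 after it are Opalin, Tll2 and Tm9sf3. Blnk rose by 0.83 ± 0.14 in fetal liver (adjusted p = 0.00442, limma), which was -0.13 after quantile scaling. Tm9sf3 fell by 0.90 ± 0.18 (adjusted p = 0.00722). In the treatments Blnk and Tm9sf3 lay between -0.29 and 0.02. C330026H20Rik was well above background on 3 of 8 arrays, all from bone marrow. It differed by -0.85 ± 0.39 with Lin28b, with groups that did not overlap, and by -0.21 ± 0.39 with let-7b. Between tissues it differed by -0.82 ± 0.39 (adjusted p = 0.12, limma). None of these passed, and its fetal levels were not well above background. Opalin and Tll2 were too dim to test, and Gm4269 had no probe by name.

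The tested genes whose profile over the 8 arrays lay nearest to that of Dntt, by Euclidean distance of the log2 levels after each gene's mean was taken off, were Mpzl2 (distance 0.763), Itgb3 (0.766), Gm5353 (1.00), Chd3 (1.21), Akr1c13 (1.46) and Ramp3 (1.47). The length of the Dntt profile itself was 7.08. Mpzl2 is an adhesion protein first found in thymic epithelium, Itgb3 an integrin subunit and Chd3 a chromatin remodeller. In fetal liver with the empty vector the log2 difference from bone marrow was -6.01 for Mpzl2, -5.82 for Gm5353 (well above background on 1 of 2 of those arrays), -5.14 for Itgb3 (-2.08 on its second probe) and -4.53 for Akr1c13, with Chd3 close to Mpzl2. Ramp3 was not well above background there and was at least 12.4-fold lower. Their differences ran from -0.76 to -0.03 with Lin28b and from 0.59 to 1.77 with let-7b (0.59 for Ramp3, which was well above background on 1 of the 4 fetal arrays), and none passed. Pearson's r with Dntt was 0.99 to 0.997 over the 8 arrays, where 67 genes reached 0.99 or more. The gap between tissues sets nearly all of such an r. The genes were chosen on these same 8 arrays, so their likeness to Dntt follows from the choice.

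The genes nearest to the mirror image of Dntt were Alpk3 (distance 1.03), Robo2 (1.06), Grrp1 (1.15), 5430401H09Rik (1.27), Cyp4f18 (1.34) and Igf2bp1 (1.34). Igf2bp1, an mRNA-binding protein of fetal cells and a known let-7 target, was higher in fetal liver by 5.46 ± 0.20 (adjusted p = 0.000293, limma), and Cyp4f18, a lipid-oxidizing enzyme, by 5.13. The others were not well above background in bone marrow with the empty vector, and the lower bounds were 26.8-fold for Alpk3, 15.5-fold for Robo2, 14.6-fold for Grrp1 and 12.1-fold for 5430401H09Rik. With let-7b the 6 differed by -1.38 to -0.45, and none passed. With Lin28b Igf2bp1 differed by 1.56 ± 0.20 (adjusted p = 0.709), while Robo2, Grrp1 and 5430401H09Rik were not well above background in either bone marrow group. In all 62 genes had an r of -0.99 or less with Dntt.

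**Figure D5:**
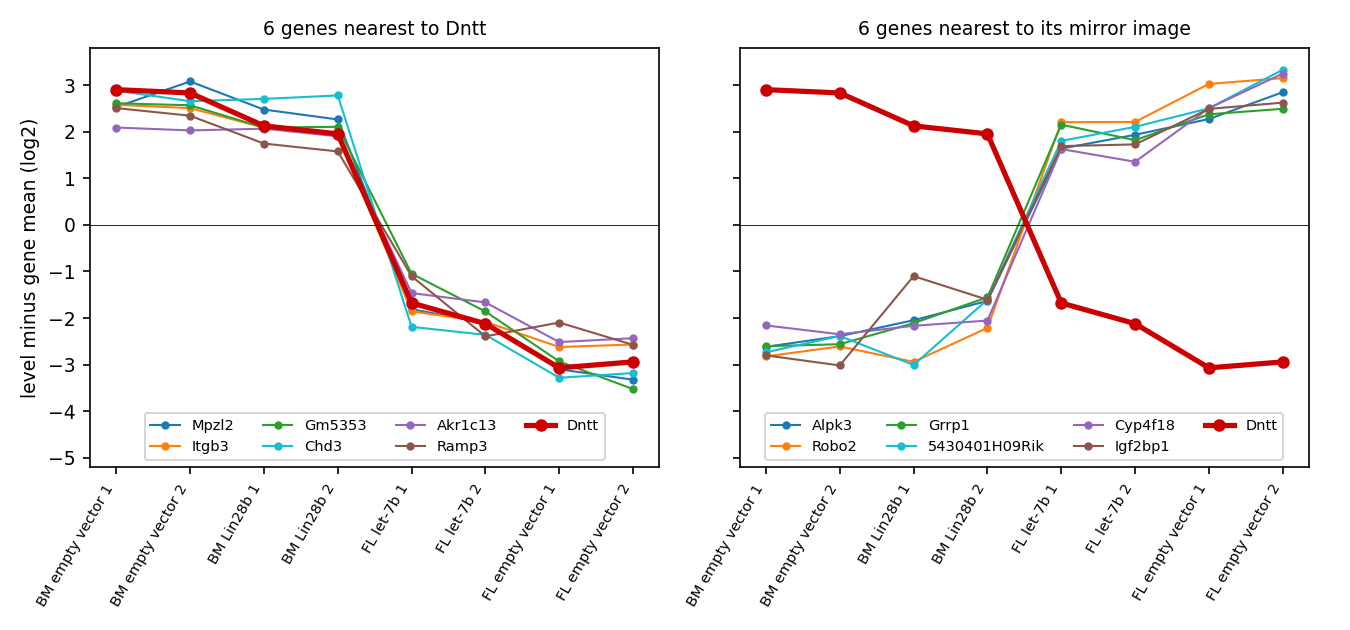
Log2 level minus the gene's mean over the 8 arrays for Dntt (thick line) and, in the left panel, the 6 genes nearest to it and, in the right panel, the 6 nearest to its mirror image; lines join the arrays of a gene only to follow it by eye. On the left the genes share the drop between bone marrow and fetal liver, and on the right they rise where Dntt is low. Both follow from choosing the genes by these same levels.

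Markers of the early lymphoid stage and of other cells were read beside Dntt, as the sum over a list of signals relative to the 75th percentile. Pro-B markers summed to 375 to 395 in bone marrow with the empty vector, 326 to 355 with Lin28b, 848 to 1140 in fetal liver with the empty vector and 972 to 1020 with let-7b, and 6 of 9 were called higher in fetal liver and 0 lower. For all marker lists these calls stand against 40.1% of all genes higher and 19.5% lower. After median scaling 2 pro-B markers were higher and 2 lower. Of 20 early lymphoid progenitor genes tested, 10 were higher and 2 lower in fetal liver (5 and 6 after median scaling). In either treatment 0 passed, against 0% (Lin28b) and 0.0305% (let-7b) of all genes. With Lin28b 16 were lower and 4 higher (median -0.08, all genes -0.04). With let-7b 13 were higher and 7 lower (median 0.11, all genes -0.06). An unadjusted limma p below 0.05 was reached by 1 with Lin28b and 5 with let-7b, against 819 and 2240 of all 22927 genes. Thymocytes also carry Dntt. T cell and thymocyte markers (11 of 12 tested) summed to 14.4 to 14.9, 14.9 to 16.1, 35.7 to 67.6 and 26 to 35.2 in the same order of groups, and 7 were higher and 2 lower in fetal liver (6 and 2 after median scaling). In bone marrow with the empty vector, where Dntt was highest, 7 of the 11 tested were well above background on both arrays. Cd8a, Ptcra and Bcl11b were so on neither. The part of such cells in the Dntt level was not tested. Stromal markers (13 of 14 tested) summed to 20.9 to 24.8, 35.2 to 53.5, 8.57 to 10.6 and 14.8 to 19.4. They were higher with Lin28b in 12 of 13 (median 1.02) and with let-7b in 11 of 13 (median 0.90), with 0 calls. The cultures stood on OP9 stromal cells, and the part of stromal RNA in the Dntt differences was not tested.

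Myeloid markers (10 of 12 tested) summed to 9.20 to 9.67, 7.70 to 10.1, 28.8 to 61.2 and 24.8 to 56.5, with 3 higher and 2 lower in fetal liver (3 and 2 after median scaling). With Lin28b 5 of the 10 were higher and 5 lower than with the empty vector (median 0.02, all genes -0.04). S100a8 and S100a9, which neutrophils make in bulk, were not well above background in bone marrow with the empty vector but were so on both Lin28b arrays, at -6.64 and -1.09 for S100a8 and at -4.61 and 0.56 for S100a9 (adjusted p = 1, limma). Their part in the Dntt difference was not tested. Dendritic cell markers (6 of 8) summed to 85.4 to 86.9, 65.8 to 77.3, 225 to 242 and 235 to 275, with 3 higher and 2 lower (3 and 3 after median scaling). Mature B cell markers (7 of 8) summed to 15.2, 16 to 19.3, 24.6 to 31.8 and 15.5, with 4 higher and 1 lower (2 and 2 after median scaling). The natural killer and innate lymphoid list (6 of 8 tested) summed to at most 2.12, the erythroid list (5 of 8) to at most 0.398 and the hepatocyte list (3 of 8) to at most 0.357 in any group. In none of these lists did a gene pass in a treatment in the main fit. With let-7b, 1 mature B cell marker was called higher after quantile scaling, with a filter of 4 arrays and with a trended and robust variance. The part of these cells in the tissue difference of Dntt was not tested.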

How the data were processed

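The scanner files hold spot intensities, which the authors deposited after background correction by Agilent Feature Extraction 9.5.3.1, per the file headers. Processed signals were put on a log2 scale, and each array's 75th percentile over its 43020 non-control spots was subtracted. Copies of a probe were averaged without spots marked as outliers. The 31 probes that had no copy left on some array after this were left out. A further 10989 of the 39429 probes failed the filter, which asked for a signal well above background on at least 2 of 8 arrays. The brightest kept probe stood for a gene (22927 genes). limma 3.58.1 in R 4.3.3 fitted 1 mean per group over 8 arrays, with Benjamini-Hochberg adjustment over all genes and calls at an adjusted p below 0.05. Precision is limited by 2 arrays per group.

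The authors also deposited 1 table of log2 values. Against the scanner signals its slopes on bright spots were 0.957 to 0.999. Its medians were 7.22 on bone marrow and 6.16 on fetal arrays, so tests on it stayed within a tissue. How it was centred and normalized is not stated in the labels or headers. Names came from a RefSeq gene table (GRCm38.p6) by accession, symbol or synonym, and 6031 kept probes retained the file's name.

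The gene and the lists were chosen with earlier results of these data known. Genes named are Dntt, family X polymerases, TdT-binding proteins, in 2 lists the 4 of smallest p per comparison and the called members between tissues, 3 neighbours on each side, the 6 nearest profiles and their mirror, and the genes next in rank. A few members of the lists are counted but not reported by name here. Named genes' differences close to 0 in a treatment are given as ranges. Lin28b, Ccn2, an unnamed transcript and genes named as marker lists were added.

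Replicate numbers were not taken as pairs: deviations of arrays with the same number correlated at -0.0553 in bone marrow and 0.517 in fetal liver, with 2 pairs each. Alternatives were normexp background (offset 50), quantile and median scaling, other filters, a trended and robust variance, only the arrays compared, blocks, the deposited table and each array left out.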

Additional observations from a re-analysis of the deposited data

How the results depend on the processing

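Over every alternative run, the Dntt differences kept their direction. The differences between tissues and between the treated groups passed in all 17, and those with Lin28b and let-7b in none of 18. With 1 array left out, the ranges were -0.91 to -0.74 (Lin28b), 0.88 to 1.33 (let-7b), -5.93 to -5.81 (tissues), -4.16 to -3.71 (treated groups) and 1.71 to 2.16 (between treatments). The last difference, 1.93, passed with a trended and robust variance and with slide as a random block. With the replicate number as a block the adjusted p of Dntt was 0.814, 0.264, 0.00316, 0.00362 and 0.293 in that order. The treatment counts were far less stable: let-7b called 7 genes, but 0 with normexp, with no filter, with only the arrays compared or with the replicate block, 24 after median and 86 after quantile scaling, 41 with a filter of 4 arrays, 85 with trend and robust, 238 with the slide block, and 0 to 522 with 1 array left out (522 without fetal empty vector replicate 1). Lin28b called 0 to 4, and the difference between treatments 0 to 105. Tissue calls (13657) dropped to 9050 and 9123 without a bone marrow empty vector array, and treated calls (13305) to 7856 and 8531 without a Lin28b array. Of the genes named between tissues, Xrcc6 (-0.067), Polm (-0.29), Poll (-0.48), Rag2 (-0.63), Dnttip1 (-0.46), Satb1 (-0.50) and Ets1 (-0.18; treated -0.30) turned with median scaling, Blnk (-0.13) with quantile scaling and Ets1 (treated -0.10) with normexp. Rag2 with Lin28b was 0.0085 in the authors' deposited table. The cause was not tested. The deposited table was not run between tissues, and only 1 Dntt probe exists to compare.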
